A study of Mus musculus with 8 samples.

Results

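The 81 collagen and extracellular matrix genes listed in an RNA sequencing study of mouse peritoneal macrophages were compared between Ptpn1 knockout and wild-type cells, with and without IL-10. They were taken from 11996 listed genes by symbol alone: numbered collagen chains, laminins, fibulins, matrix metalloproteinases (Mmp), their tissue inhibitors (Timp), the ADAMTS and ADAMTS-like genes, lysyl oxidases, and the single genes Fn1, Sparc, Bgn, Dcn, Lum, Postn, Eln, Fbn1, Nid1, Thbs1 and Hspg2. Of the 81, 69 had a mean signal over the groups of at least 1 ppm of the column total, which is 26.7 units, and these entered the ratios below. The other 12 had means of 8.88 to 25.9 units, among them Adamts3, Adamts5, Adamts20, Adamtsl1, Col6a6, Col8a2, Col14a1, Lum, Mmp11, Mmp25 and Mmp28.

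The cells were macrophages drawn into the peritoneum of C57BL/6 mice by thioglycolate, an irritant, and left to adhere to plastic for 24 h. There were 4 groups of 2 samples each: Ptpn1-/- cells with IL-10 at 100 ng/ml for 4 h, Ptpn1-/- cells with mock treatment, wild-type cells with the same IL-10 treatment, and wild-type cells with mock treatment. Ptpn1 encodes PTP1B, a phosphatase that acts on receptor and JAK tyrosines, while the cytokine IL-10 dampens inflammation through JAK1, TYK2 and STAT3. The labels give no age or sex, do not say whether the deletion is limited to a cell type, and do not give which mice gave the cells of each treatment.

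The extracellular matrix is a network of fibrillar collagens, sheet-like basement membranes built from type IV collagen and laminins, elastic fibres, and adhesive glycoproteins and proteoglycans. Fibroblasts and mesothelial cells, which support and line the peritoneum, make most structural matrix in that tissue. Macrophages are better known for the enzymes that cut matrix, above all the macrophage elastase MMP12, and for fibronectin and inhibitors of metalloproteinases.

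Each gene had 1 authors' signal per group, so every value below stands without an SD. The spread between the 2 samples of a group cannot be seen, no difference was tested, and no p-value is given. Sequencing depth is unknown. All columns have the same total and the same highest value, 362618 units, so a shift common to most genes cannot be seen. Ratios are log2 ratios with 26.7 units added to both signals, which understates differences of low genes. On this scale 2-fold is 1 and 1.5-fold is 0.58. The targeted gene, Ptpn1, was listed at 3836.5 units in mock-treated knockout cells and 4960.5 in wild type, and at 5391.5 and 6736 with IL-10, log2 ratios of -0.37 and -0.32. Which part of the gene was deleted is not given in the sources used here, so a value for the gene as a whole cannot check the genotype labels, and the directions below rest on those labels.

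Structural matrix genes had lower signal in knockout than in wild-type macrophages under both treatments. Under mock treatment 58 of the 69 kept genes lay below 0, or 84.1%, beside 45.8% of all 11400 kept genes, and their median log2 ratio was -0.38 beside 0.02 over all kept genes. With IL-10, again 58 of 69 lay below 0, beside 47.4% of all kept genes, and the median was -0.39 beside 0.01. At least 2-fold lower under mock were 2 of 69, Col3a1 and Col6a5, where 0.105% of all kept genes were, and with IL-10 Col3a1 alone, where 0.0789% of all kept genes were. No member was 2-fold higher in either comparison, where 0.325% of all kept genes were under mock and 0.596% with IL-10. At 1.5-fold, a limit added after the values were seen, 16 members were lower and 1, Mmp13, was higher under mock, beside 1.4% and 1.43% of all kept genes. With IL-10 the counts were 13 lower and again Mmp13 higher, beside 0.991% and 1.8%. Most members lower at this limit, 14 under mock and 12 with IL-10, were among the 41 kept collagens, laminins, glycoproteins and proteoglycans. Of these 41, 37 lay below 0 under mock and 38 with IL-10, with a median of -0.48 in both. That is 90.2% and 92.7%, beside 84.1% of all kept members in each comparison.

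**Figure D1:**
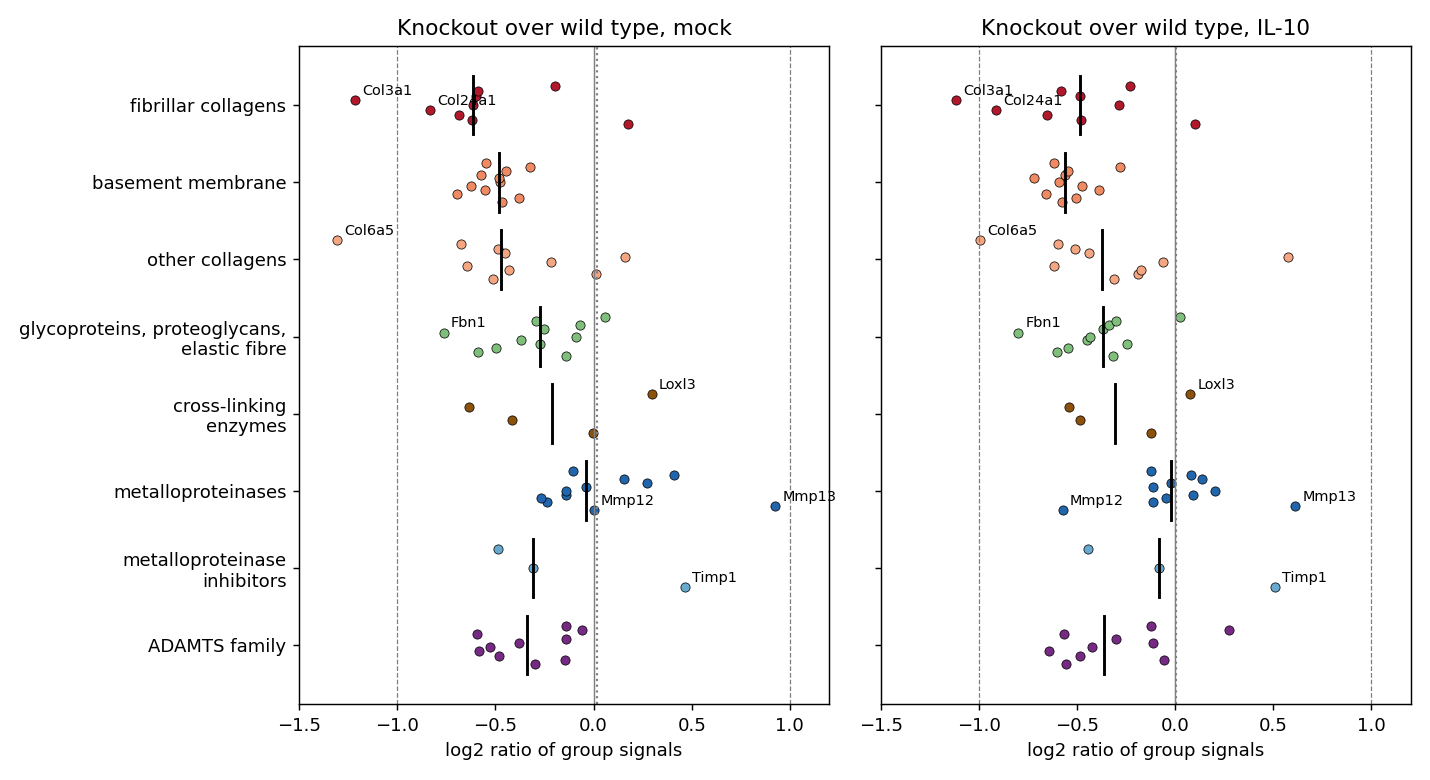
Log2 ratio of knockout over wild-type signal (x axis, no unit) for the 69 kept matrix genes in 8 classes, under mock treatment (left) and with IL-10 (right). Each point is a gene, black bars are class medians, the dotted line is the median of all kept genes and dashed lines mark 2-fold; fibrillar collagens centre on -0.62 and -0.48, metalloproteinases on -0.04 and -0.02.

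Transcript length moved with these ratios over all genes. Across 11222 kept genes with a known transcript length the knockout ratio was lower for longer transcripts, and Spearman's rho was -0.53 in mock-treated and -0.40 in IL-10-treated cells, a description across genes that share the same columns. Matrix genes are long: the median of the longest annotated transcripts was 5316 bases for the 69 members and 3461 for all kept genes. With the trend over length subtracted the members' median was -0.31 under mock and -0.32 with IL-10, and 55 and 57 of 69 lay below 0, beside 50.7% and 50.3% of all kept genes. Among genes with transcripts of 5354 to 6839 bases, the 20 members had a median of -0.47 under mock and the other genes -0.13. At 6840 bases and over, the 13 members had a median of -0.60 and the other genes -0.21. At 2995 to 3461 bases the 5 members, Loxl1, Mmp2, Mmp9, Mmp14 and Mmp19, all of them genes of enzymes, had a median of -0.14 beside 0.04. Of the 4 bins of shorter transcripts, with 2 members each, 3 went the other way: medians were 0.21 for the members beside 0.19 for other genes up to 1491 bases, 0.21 beside 0.13 from 1492 to 2035, and 0.39 beside 0.06 from 2540 to 2994.

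**Figure D2:**
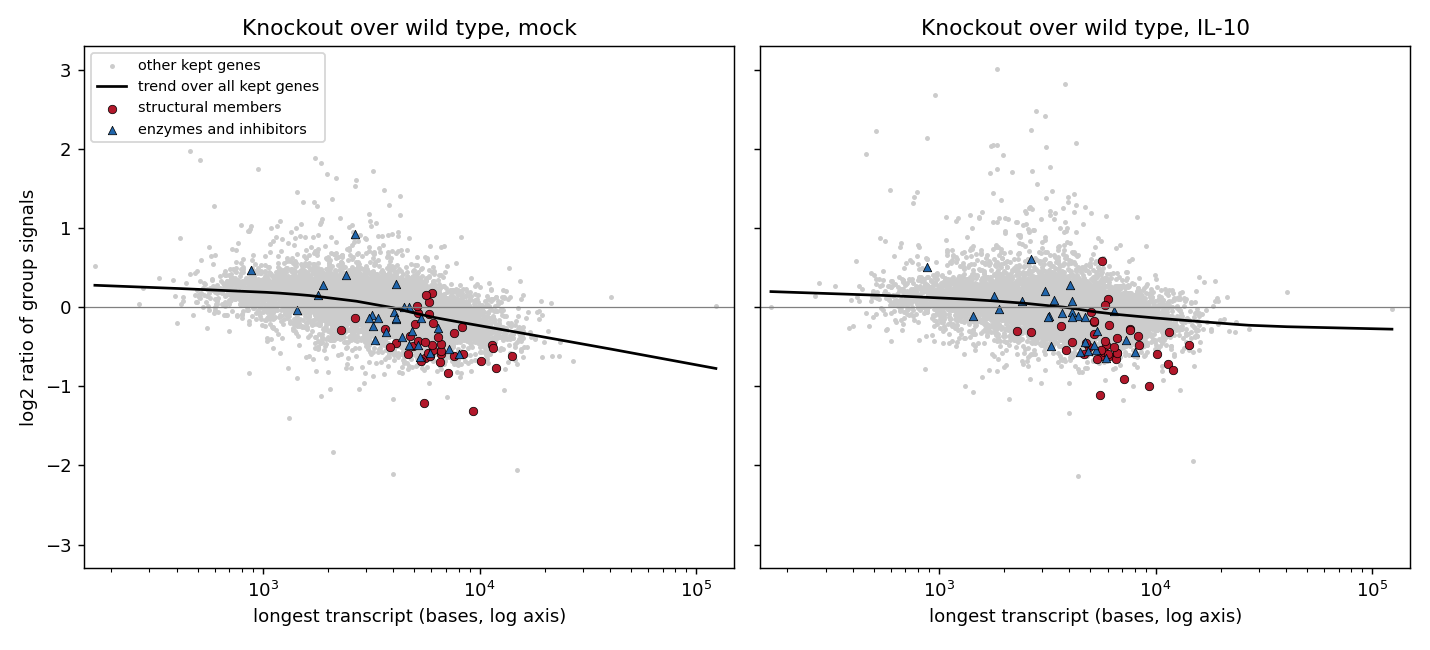
Log2 ratio of knockout over wild-type signal (y axis) against the length of the longest annotated transcript (x axis, bases, log scale) under mock treatment (left) and with IL-10 (right). Grey points are other kept genes and the line is the trend over all kept genes; structural members (red) lie mostly below the line, with medians of -0.48 before the trend is subtracted and -0.35 under mock and -0.40 with IL-10 after it.

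Per kilobase of the longest transcript, the most abundant member was Mmp12, at a mean of 66049 units per kb over the groups, followed by Fn1 at 7791, Timp2 at 4074, Col1a2 at 2385 and Sparc at 2131. Mmp12 encodes the macrophage elastase, Fn1 the adhesive glycoprotein fibronectin, Timp2 an inhibitor of metalloproteinases and Sparc a collagen-binding matricellular protein. Mmp19 and Mmp14 came next, at 1540 and 1320 units per kb. At the low end Col6a6, Adamts20 and Adamtsl1, all under the filter, stood at 1.01 to 1.61 units per kb. These lengths may differ from those of the transcripts the cells used. The coordinates printed for a gene are those of its row on mm9, and for 53 of the 81 members the row's span equals that of a single annotated transcript of the gene. For 22 members the row spans under 50% of the annotated gene, as for Col1a2, whose row spans 843 bases.

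Col3a1 is the fibrillar collagen furthest below 0 in the knockout, and Mmp13 the member furthest above 0 there under mock. Timp1 is the kept member with the highest ratio of IL-10 over mock in both genotypes. The upstream sequences of these 3 members are shown because the members lead the 3 patterns described below. Each is the stretch of 250 bases before the RefSeq start on the plus strand of GRCm38.p6, from RefSeq: chr1:45311288-45311537 for Col3a1, chr9:7272264-7272513 for Mmp13 and chrX:20869916-20870165 for Timp1. Capitals mark motifs, each searched on both strands: the TATA box as TATAAA, the CCAAT box as CCAAT, the GC box as GGGCGG and the AP-1 motif as TGANTCA.
Col3a1: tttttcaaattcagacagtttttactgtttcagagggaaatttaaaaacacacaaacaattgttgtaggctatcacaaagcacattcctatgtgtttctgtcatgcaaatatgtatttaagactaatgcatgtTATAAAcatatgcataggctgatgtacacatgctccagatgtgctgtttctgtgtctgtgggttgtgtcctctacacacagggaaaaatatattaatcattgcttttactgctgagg
Mmp13: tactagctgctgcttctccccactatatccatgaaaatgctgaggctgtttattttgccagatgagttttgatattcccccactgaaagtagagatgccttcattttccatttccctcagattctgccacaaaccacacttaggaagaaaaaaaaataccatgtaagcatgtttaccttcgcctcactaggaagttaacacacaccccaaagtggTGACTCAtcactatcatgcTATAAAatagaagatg
Timp1: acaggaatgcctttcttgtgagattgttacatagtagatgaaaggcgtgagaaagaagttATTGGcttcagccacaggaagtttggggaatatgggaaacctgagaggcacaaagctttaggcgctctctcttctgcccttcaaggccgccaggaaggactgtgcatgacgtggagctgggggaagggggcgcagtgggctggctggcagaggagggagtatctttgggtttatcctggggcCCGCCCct
Col3a1 held 1 TATAAA, Mmp13 1 TATAAA and 1 TGANTCA, and Timp1 1 CCAAT and 1 GGGCGG, both on the reverse strand. The motif TTCNNNGAA, which STAT factors bind, was searched for too and is in none of the 3. Of all 32851 upstream stretches of this length, 12.4% held TATAAA, 33.8% CCAAT, 32.7% GGGCGG, 6.75% TGANTCA and 7.02% TTCNNNGAA. Of the 62 stretches that belong to 55 members with an entry, 9.68% held TATAAA, 24.2% CCAAT, 64.5% GGGCGG, 6.45% TGANTCA and 4.84% TTCNNNGAA. A match describes letters in the stretch and is no evidence of binding. Col1a1 and Fn1 had no entry.

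Fibrillar collagens, which form the tensile fibres of connective tissue, stood below wild type under both treatments. Of 9 kept genes 8 lay below 0 under mock and 8 with IL-10, beside 45.8% and 47.4% of all kept genes. The medians were -0.62 under mock and -0.48 with IL-10. With the length trend subtracted 8 lay below 0 in each comparison, with medians of -0.44 and -0.40. Col3a1 (ENSMUSG00000026043; mm9 chromosome 1, 45368383 to 45381863), the chain of type III collagen, was listed at 1962.5 units in mock-treated knockout cells against 4587 in wild type. With IL-10 it stood at 2260.5 in the knockout against 4922.5 in wild type. The log2 ratios were -1.21 and -1.11, and both knockout values lay below both wild-type values. The row of Col3a1 spans 35.3% of the gene and equals a transcript with a retained intron, and without rows under 50% the members past 2-fold are 1 under mock and 0 with IL-10. Type I collagen is built from the products of Col1a1 and Col1a2. Col1a1 had 3790.5 units in knockout and 5847 in wild-type cells under mock, and 3910.5 and 5469 with IL-10, log2 ratios of -0.62 and -0.48. Col1a2 had 10235 in knockout and 16470 in wild-type cells under mock, and 9447 and 14870.5 with IL-10, log2 ratios of -0.68 and -0.65. Both chains thus stood lower by a like amount, and Col1a1 per kilobase was 0.33 to 0.37 of Col1a2 in knockout columns and 0.32 to 0.33 in wild-type columns. The row of Col1a2 spans 2.3% of the gene and equals a transcript with a retained intron, so that proportion may not be one of whole chains. The type V chains, which nucleate fibrils, followed: Col5a1 had a log2 ratio of -0.60 under mock and of -0.48 with IL-10. Col5a2, whose row lies on the same stretch of chromosome 1 as that of Col3a1 with no other listed gene between them, had -0.59 and -0.58. Col24a1, a minor fibrillar chain, stood at 108 units in knockout and 213.5 in wild-type cells under mock, and at 100 and 212 with IL-10, log2 ratios of -0.83 and -0.91. The rows of Col5a1, Col5a2 and Col24a1 span 12.8%, 3.83% and 8.29% of their genes. The exception was Col11a2, at 44 units in knockout and 36 in wild-type cells under mock and 47 and 42 with IL-10, a low signal.

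Kept basement membrane genes were all below 0, where 45.8% of all kept genes were under mock and 47.4% with IL-10. Each of the 11 kept genes was lower in knockout cells under both treatments, with ranges of -0.69 to -0.32 under mock and -0.72 to -0.28 with IL-10 and medians of -0.48 and -0.56. With the length trend subtracted all 11 were still below 0 in each comparison, with medians of -0.34 and -0.48. Col4a1 and Col4a2 encode the chains of the common type IV collagen network, and their rows start 21 bases apart on opposite strands of chromosome 8. Col4a1 had 580 units in knockout and 811 in wild-type cells under mock, and 547 and 827.5 with IL-10. Col4a2 had 451 and 594 under mock, and 391 and 566 with IL-10, the knockout first in each pair. Their log2 ratios lay close together, at -0.47 and -0.38 under mock and -0.57 and -0.50 with IL-10. Col4a5, an X-linked type IV chain, had the lowest ratio of the class under mock, -0.69, and Lama5, a laminin alpha chain, the lowest with IL-10, -0.72. Hspg2, which encodes the proteoglycan perlecan, stood at 1789 units in knockout and 2768 in wild-type cells under mock, and at 1774 and 2477 with IL-10. Nid1, which encodes the linker nidogen, had log2 ratios of -0.55 and -0.61, and the laminin chain genes Lamb1 and Lamb2 had -0.58 and -0.44 under mock. Lamc1 lay nearest to 0, at -0.32 and -0.28. The rows of Lama5, Lamc1 and Col4a6 span 2.5%, 1.62% and 6.94% of their genes, so their ratios may not be those of whole genes.

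Among the other collagens, Col6a5 (ENSMUSG00000091345; mm9 chromosome 9, 105758400 to 105862974), a chain of beaded-filament type VI collagen, stood at 57 units in knockout and 180.5 in wild-type cells under mock, and at 83 and 192 with IL-10. Its log2 ratios were -1.31 and -0.995, the second just short of 2-fold. The common type VI chains Col6a1, Col6a2 and Col6a3 had -0.45, -0.49 and -0.68 under mock and -0.44, -0.51 and -0.59 with IL-10. Col6a1 stood at 1283 units in knockout and 1766 in wild-type cells under mock, and at 1325 and 1803.5 with IL-10. Col18a1, the basement membrane collagen that contains endostatin, had -0.64 and -0.61. The rows of Col6a1 and Col18a1 span 48.8% and 15.4% of their genes. Of the 10 kept genes of the class 8 lay below 0 under mock and 9 with IL-10, beside 45.8% and 47.4% of all kept genes. The class medians were -0.47 and -0.37, or -0.38 and -0.29 with the length trend subtracted. Col23a1, a transmembrane collagen, was above 0 under both treatments at a low signal: 31 units in knockout and 25 in wild-type cells under mock, and 40 and 18 with IL-10.

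**Figure D3:**
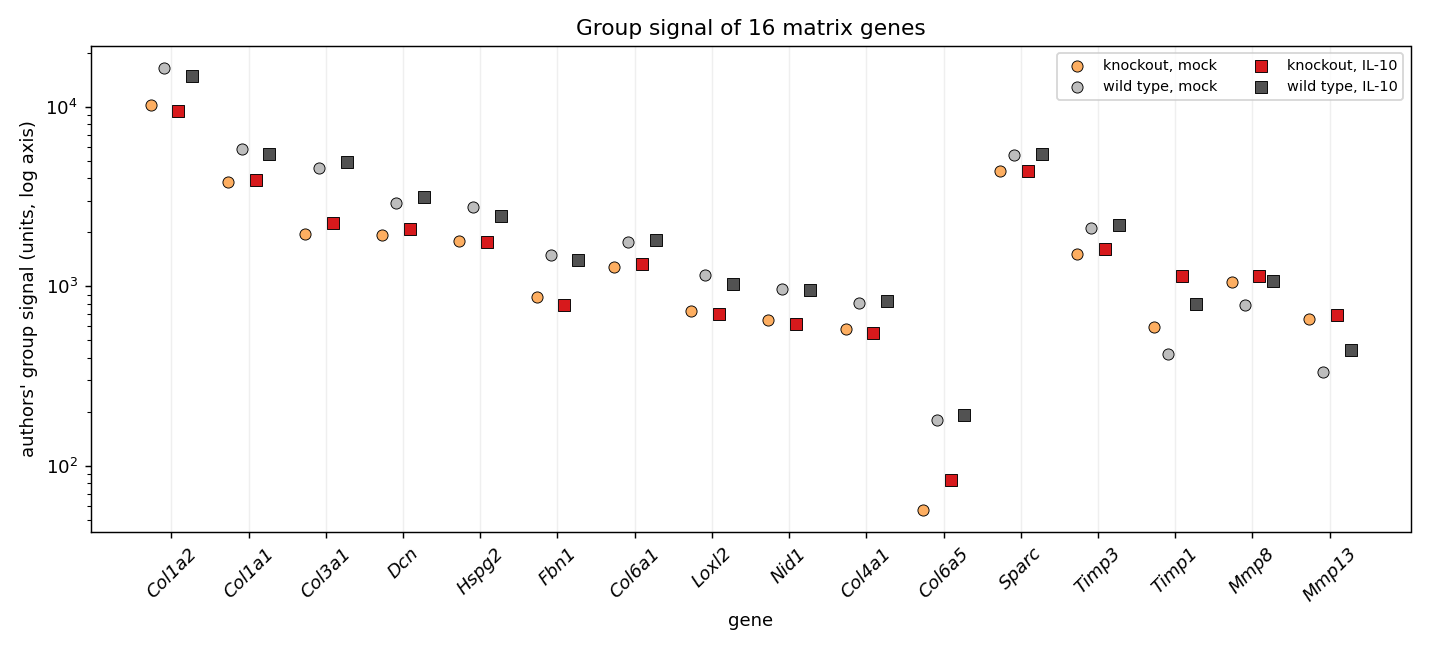
The authors' signal per group (y axis, units, log scale) of 16 matrix genes in the 4 groups, 1 value per group with no error bars. Circles are mock and squares IL-10; for every gene from Col1a2 to Timp3 both knockout values lie below both wild-type values, while Timp1, Mmp8 and Mmp13 are higher in the knockout under each treatment.

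Glycoproteins, proteoglycans and elastic fibre genes were mostly lower in the knockout, with a median of -0.27 under mock and -0.36 with IL-10. In each comparison 10 of 11 lay below 0, beside 45.8% of all kept genes under mock and 47.4% with IL-10. With the length trend subtracted 8 did under mock and 10 with IL-10. Fbn1, which encodes the microfibril protein fibrillin 1, stood lowest, at 867 units in knockout and 1490.5 in wild-type cells under mock and 792 and 1396 with IL-10, log2 ratios of -0.76 and -0.80. Decorin (Dcn), a small proteoglycan that binds collagen fibrils, had 1927 in knockout and 2915 in wild-type cells under mock, and 2078.5 and 3161.5 with IL-10. Elastin (Eln) had log2 ratios of -0.50 and -0.54 at 44.5 to 77 units. Fibronectin and Sparc, the most abundant of the class, lay closer to 0 than Fbn1 and Dcn. Sparc was listed at 4377.5 units in knockout and 5372 in wild-type cells under mock, and at 4416 and 5442.5 with IL-10. Fn1 had 60090.5 in knockout and 71691 in wild-type cells under mock, and 55669.5 and 71691 with IL-10, log2 ratios of -0.25 and -0.36. With the length trend subtracted Fn1 stood at -0.06 and -0.25. Fn1 is one of 146 genes above 20000 units, where neighbouring ranks lie far apart in signal. Thbs1, which encodes the platelet and macrophage protein thrombospondin 1, was the 1 gene above 0 under both treatments, at 0.06 and 0.03. Postn and Fbln5 had -0.07 and -0.09 under mock, where they stood at 0.02 and 0.03 with the length trend subtracted, and -0.34 and -0.43 with IL-10.

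The lysyl oxidases, which cross-link collagen and elastin, were not alike. Loxl2 stood at 732.5 units in knockout and 1150.5 in wild-type cells under mock, and at 703.5 and 1034 with IL-10, log2 ratios of -0.63 and -0.54. Loxl1 had -0.42 and -0.49. Lox itself had -0.00 and -0.12, and Loxl3 was above 0, at 0.30 and 0.08. The row of Loxl3 spans 18.4% of the gene, and its signal was 186.5 to 235 units over the groups. The enzymes and chaperones that make and process collagen, a list of genes that are no members, had 17 kept genes. None was 2-fold different in either comparison. Of all kept genes 0.105% were 2-fold lower and 0.325% higher under mock, and 0.0789% and 0.596% with IL-10. Of the 17, 10 lay below 0 under mock and 15 with IL-10, beside 45.8% and 47.4% of all kept genes. The medians were -0.03 under mock and -0.14 with IL-10, or -0.13 and -0.22 with the length trend subtracted. Serpinh1, the collagen chaperone HSP47, had -0.36 and -0.42, and Pcolce, an enhancer of procollagen cleavage, -0.31 and -0.52. Bmp1, which cleaves procollagen, had -0.43 and -0.36, and Plod2, a lysyl hydroxylase, -0.43 and -0.24. Above 0 were 7 of the 17 under mock and 2 with IL-10, among them Ppib at 0.12 and 0.09. P4ha1, Plod3 and Lepre1 had 0.01, 0.05 and 0.06 under mock and -0.08, -0.05 and -0.11 with IL-10.

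The metalloproteinase genes, as a class, lay nearer to 0 than the structural matrix genes. Of 11 kept Mmp genes 6 lay below 0 under mock and 6 with IL-10, or 54.5%, near the 45.8% and 47.4% of all kept genes. The Mmp medians were -0.04 and -0.02, or -0.13 and 0.03 with the length trend subtracted. Mmp13 (ENSMUSG00000050578; mm9 chromosome 9, 7272514 to 7283333), a collagenase, was listed at 657 units in knockout against 333.5 in wild-type cells under mock, and at 689 against 441.5 with IL-10. Its log2 ratios of 0.92 and 0.61 were the highest of the members under both treatments, and both knockout values lay above both wild-type values. The deposited rows of Mmp13, Mmp12, Mmp3, Mmp8 and Mmp27 lie within 308878 bases of chromosome 9 with no other listed gene among them. Under mock the 4 of them other than Mmp12 were above 0, as were 6102 of all 11400 kept genes. With IL-10 3 of these 4 were, with Mmp27 at -0.02, beside 5901 of all kept genes. With the length trend subtracted Mmp13, Mmp8, Mmp27 and Mmp3 stood at 0.85, 0.32, 0.15 and 0.02 under mock. With IL-10 they stood at 0.57, 0.03, -0.09 and 0.06. Mmp8, the neutrophil collagenase, had 1059 in knockout and 791 in wild-type cells under mock, and 1141 and 1077.5 with IL-10, log2 ratios of 0.41 and 0.08. Mmp27 had 0.27 and -0.02, and Mmp3, the protease stromelysin 1, 0.15 and 0.14 at 22.5 to 33.5 units. Of the upstream stretches of this cluster, those of Mmp13 and Mmp3 and 1 of the 2 of Mmp12 held TGANTCA, and those of Mmp8 and Mmp27 did not. Mmp12 stood at the highest value of the table, 362618, in both mock columns, so no difference could be seen there, and at 183644 in knockout and 273131 in wild-type cells with IL-10, a log2 ratio of -0.57. Off the cluster, the membrane-bound collagenase gene Mmp14 had -0.24 and -0.11, Mmp19 -0.14 and 0.09, and the gelatinase genes Mmp9 and Mmp2 had -0.10 and -0.14 under mock and -0.12 and 0.20 with IL-10. Neutrophil markers were sparse: of 10 in the list 4 were listed, with a summed signal of 224.5 and 199 units in knockout and 107.5 and 106 in wild-type columns, the IL-10 column first in each pair. Ly6g, Elane, Mpo, Camp, Ltf and Ngp were not listed. Their part in the Mmp8 values was not tested.

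The inhibitors split. Timp1 (ENSMUSG00000001131), on mm9 chromosome X from 20447347 to 20451861, had 590.5 units in knockout and 420 in wild-type cells under mock, and 1140 and 794 with IL-10, log2 ratios of 0.47 and 0.51. Its longest transcript is short, at 883 bases, and with the length trend subtracted the ratios were 0.27 and 0.38. Timp3, whose product binds to the matrix, had 1506.5 in knockout and 2119 in wild-type cells under mock, and 1612.5 and 2200.5 with IL-10. The log2 ratios were -0.48 and -0.44, and the row of Timp3 spans 12.7% of the gene. Timp2 had 13268 in knockout and 16459 in wild-type cells under mock, and 14929 and 15784 with IL-10, log2 ratios of -0.31 and -0.08. The row of Timp1 lies wholly within that of Syn1 on the opposite strand, and whether reads were counted by strand is not given in the sources used here. Syn1 stood at 405.5 and 363.5 units in the knockout and 336 and 403 in wild type, with IL-10 first. Its part in the Timp1 values was not tested. The row of Timp2 overlaps that of BC100451 on the same strand, at 42 to 88 units, and that of Mmp19 overlaps Tmem198b on the opposite strand. In the ADAMTS family, secreted proteases and related proteins of the matrix, all 10 kept genes lay below 0 under mock and 9 with IL-10. Of all kept genes 45.8% and 47.4% did. The family's medians were -0.34 and -0.36, or -0.29 and -0.28 with the length trend subtracted. Adamts9, which cleaves large proteoglycans, had -0.59 and -0.57. Adamts2 and Adamts14, which remove procollagen propeptides, had -0.53 and -0.48 under mock and -0.42 and -0.48 with IL-10. The row of Adamts2 spans 0.5% of the gene. Adamtsl4, which binds microfibrils, was the 1 above 0 with IL-10, at 0.28.

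IL-10 left most matrix genes near their mock signal within 4 h. In the knockout the median log2 ratio of the 69 members was 0.01, beside -0.01 over all kept genes, and in wild type 0.02 beside 0.00. In the knockout 34 of 69 lay below 0, beside 53.8% of all kept genes, and in wild type 30 of 69, beside 49.5%. With the length trend subtracted 26 of 69 lay below 0 in the knockout, beside 49.2%, and 19 of 69 in wild type, beside 49.1%, and the members' medians were 0.05 and 0.08. None was 2-fold different in either genotype, where 0.895% of all kept genes were in the knockout and 0.482% in wild type. Past 1.5-fold, Timp1 and Adamtsl4 were higher and Mmp12 lower in the knockout, beside 2.32% and 0.807% of all kept genes, and in wild type Timp1 was higher and none lower, beside 1.54% and 0.412%. Timp1 was furthest above 0 in both. Knockout cells had 1140 units with IL-10 and 590.5 under mock, and wild-type cells 794 and 420, log2 ratios of 0.92 and 0.88. Adamtsl4 had 366.5 with IL-10 and 207.5 under mock in the knockout, and 298 and 217.5 in wild type, log2 ratios of 0.75 and 0.41. Mmp14 had 0.40 in the knockout and 0.27 in wild type, and Mmp19 0.43 and 0.20. Adamts1 had 0.20 and 0.46. Downward stood Adamts10, which takes part in microfibril assembly, with 296.5 units with IL-10 and 410.5 under mock in knockout cells and 309.5 and 456.5 in wild-type cells, log2 ratios of -0.44 and -0.52. Mmp12 had -0.98 and -0.41, but its mock values are at the table's limit and its signal lies where rank steps are wide. Col1a1 had 0.04 and -0.10, Col1a2 -0.12 and -0.15 and Col3a1 0.20 and 0.10.

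**Figure D4:**
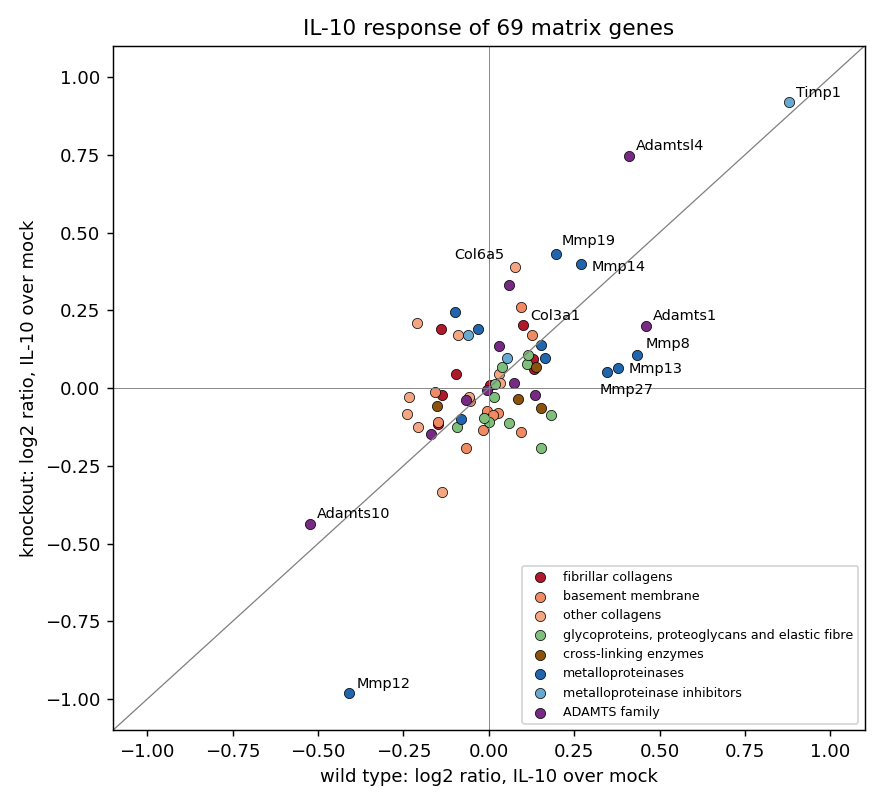
Log2 ratio of IL-10 over mock signal of the 69 kept matrix genes in knockout (y axis) and wild-type macrophages (x axis), coloured by class. The diagonal marks equal ratios; most structural genes lie near the origin, with Timp1 at 0.92 and 0.88 and Mmp12, at the upper limit of the table under mock, at -0.98 and -0.41.

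Subtracting each member's wild-type IL-10 ratio from its knockout ratio gave a median of -0.0020 over the 69 members and of -0.0043 over all kept genes. No member differed by 2-fold, where 0.132% of all kept genes did. The values ran from -0.35 for Fbln5 to 0.42 for Col23a1, leaving out Mmp12, which is at the table's limit in both mock columns and gives no such difference. In the chromosome 9 cluster Mmp8, Mmp13 and Mmp27 differed by -0.33, -0.31 and -0.30: each was higher in the knockout under mock, and the genotypes stood closer with IL-10. Mmp3 of the same cluster differed by -0.01. Mmp8, Mmp13 and Mmp27 had IL-10 ratios of 0.05 to 0.11 in knockout and 0.35 to 0.43 in wild-type cells, and the same 4 columns enter both. Adamtsl4 differed by 0.34 and Col6a5 by 0.31, while Timp1 differed by 0.04.

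Mesothelial markers, and some fibroblast markers, stood lower in the knockout as well. Of the 14 mesothelial markers 13 were listed and 12 kept, none of them a member, and their median log2 ratio was -0.44 under mock and -0.49 with IL-10, with 11 and 10 of 12 below 0, beside 45.8% and 47.4% of all kept genes. Their summed signal was 1729 units in knockout and 2532 in wild-type cells under mock, and 1800.5 and 2699.5 with IL-10. Lrrn4, Upk3b, Bnc1 and Krt8 had -0.54, -0.57, -0.71 and -0.64 under mock, and Msln, at 31 to 41.5 units, had -0.01. Of the 13 fibroblast markers listed, none a member, 8 lay below 0 and 4 above in each comparison, with medians of -0.31 and -0.23. Pdgfra, the receptor that marks fibroblasts, had 1731 units in knockout and 2876 in wild-type cells under mock, and 1850 and 2884 with IL-10, log2 ratios of -0.72 and -0.63. Ddr2, Cdh11 and Pdgfrb had -0.68, -0.61 and -0.70 under mock and -0.57, -0.55 and -0.20 with IL-10. Above 0 under both treatments were Pdpn at 0.28 and 0.16, S100a4 at 0.22 and 0.18, Gsn at 0.20 and 0.06 and Thy1 at 0.13 and 0.07. The list's summed signal, 199569 units in knockout and 199658 in wild-type cells under mock and 200558 and 201196 with IL-10, is mostly Vim, which macrophages also express, as they do Gsn, Pdpn and S100a4. The markers Dpt, Pi16, Fap, Tcf21, Clec3b, Mfap5 and Muc16 were not listed. Smooth muscle markers had medians of -0.08 and -0.17 over 4 kept genes, and the endothelial markers Cdh5, Pecam1 and Esam were at 7.5 to 28 units. Of the 2 kept endothelial markers, Vwf had 1571 units in knockout and 2253.5 in wild-type cells under mock, and 1218 and 1890 with IL-10, whereas Kdr had 504 and 284.5 under mock and 1156 and 504 with IL-10. In these bulk samples fewer cells of a type and less RNA per cell cannot be told apart, and the part of such cells in the matrix differences was not tested.

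Markers of the macrophages themselves went both ways. Over the macrophage list the median was -0.07 for mock and -0.05 for IL-10, with 6 of 11 kept genes below 0 and 5 above in each. Of all kept genes 45.8% lay below 0 under mock and 47.4% with IL-10. Aif1 and Fcgr1 stood at 0.99 and 0.79 under mock and 0.62 and 0.61 with IL-10, and Itgam at -0.38 and -0.21. Csf1r had -0.14 and -0.05, and Emr1, which encodes F4/80, 0.06 and -0.12. Its summed signal was 492452 units in knockout and 678974 in wild-type cells under mock and 489727 and 582070 with IL-10, mostly Cd68 and Lyz2, and Lyz2 lies where rank steps are wide, at -1.41 and -0.995. All 5 kept monocyte markers were above 0 in both comparisons, as were 6102 of all 11400 kept genes under mock and 5901 with IL-10. The monocyte medians were 0.86 and 1.12. Their summed signal was 2249.5 in knockout and 991 in wild-type cells under mock, and 2892 and 1443 with IL-10. Among resident peritoneal macrophage markers Gata6 stood at -0.74 and -0.66 and Vsig4 at -0.90 and -1.07, whereas Cxcl13 was above 0 at 0.88 and 0.73, and that list's medians were -0.14 and -0.12 over 7 kept genes. The mast cell list had medians of 0.41 and 0.54 over 4 kept genes, the neutrophil list 0.67 and 0.84 over 2, and the B cell list 0.12 and -0.21 over 2. Lck, the 1 kept T cell marker, had -0.06 and 0.23, and Siglec5, the 1 kept eosinophil marker, 0.14 and 0.02. These cell types were checked only through the listed genes, and their part in the matrix values was not tested either.

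**Figure D5:**
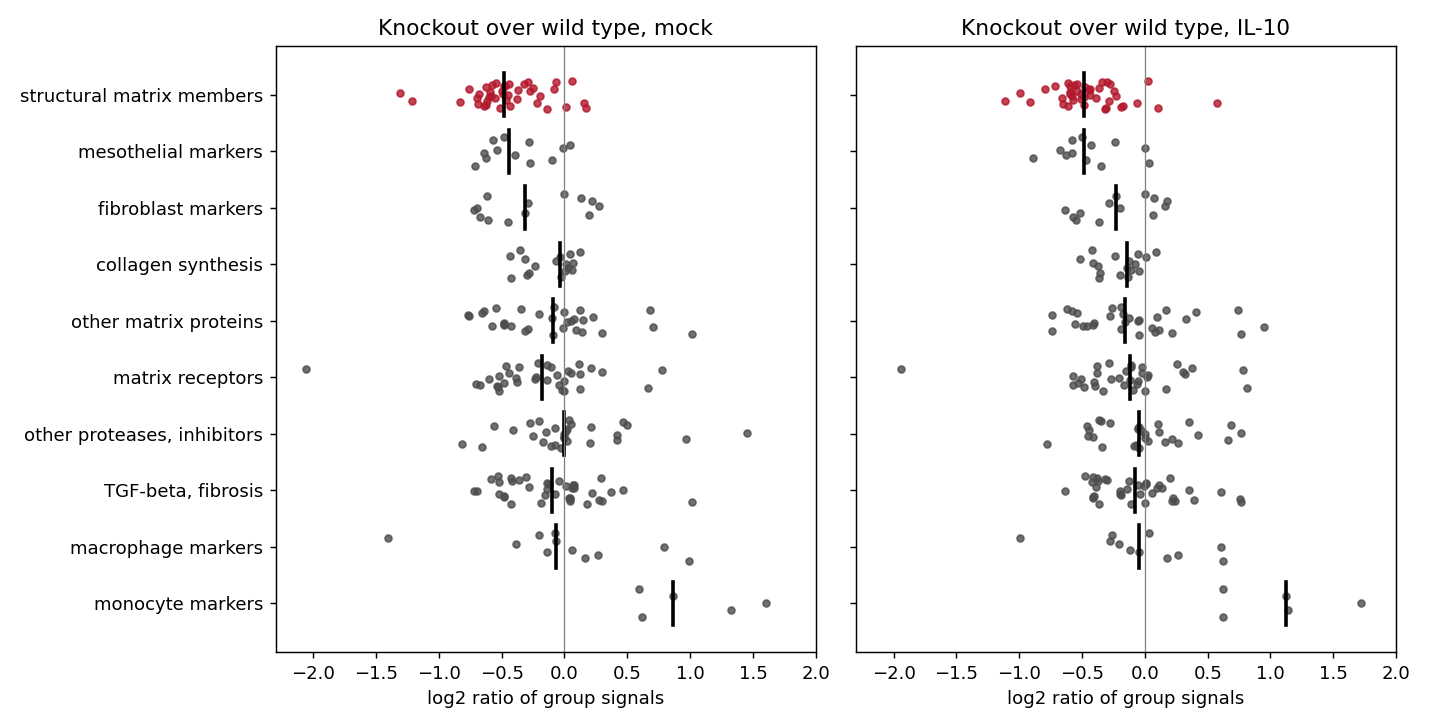
Log2 ratio of knockout over wild-type signal (x axis) for kept structural matrix genes (red) and for kept genes of other lists (grey), under mock (left) and with IL-10 (right). Points are genes and bars medians; medians are -0.48 for structural genes in both panels, -0.44 and -0.49 for mesothelial and -0.31 and -0.23 for fibroblast markers, and all monocyte markers lie above 0.

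Other genes that make, bind or cut matrix went both ways, with receptors mostly below 0. Of 31 kept matrix glycoproteins and proteoglycans that are no members, 18 lay below 0 under mock and 20 with IL-10, where 45.8% and 47.4% of all kept genes did, with medians of -0.09 and -0.16. Ogn, which encodes the small proteoglycan osteoglycin, had 98.5 units in knockout and 186 in wild-type cells under mock, and 112 and 205 with IL-10. Ctgf, a connective tissue growth factor, stood the other way, at 651.5 in knockout and 309 in wild-type cells under mock and 854 and 491 with IL-10, log2 ratios of 1.01 and 0.77. Tgfbi, which binds collagen and integrins, had 0.68 and 0.74, and it was higher with IL-10 in both genotypes, by 1.69 in the knockout and 1.63 in wild type on the log2 scale. Fgl2, which encodes a fibrinogen-like protein, had 0.70 and 0.95, and its IL-10 ratios were 2.74 in the knockout and 2.49 in wild type. Of 34 kept matrix receptors 24 lay below 0 in each comparison, or 70.6%, with medians of -0.18 and -0.11. With the length trend subtracted these medians were -0.09 and -0.05. Lair1, an inhibitory receptor for collagen, was above 0 at 0.78 in both, and the lectin gene Clec10a at 0.66 and 0.81. The integrin gene Itga4 had IL-10 ratios of -0.72 in knockout and -0.69 in wild-type cells. The scavenger receptor gene Cd36 had -0.59 in both. Cd36 stood at the same 137379 units in both mock columns and 91114 in both IL-10 columns, where rank steps are wide. Lrp1, an endocytic receptor that clears proteases, had -2.06 and -1.94, in the range of signal where rank steps are wide. Of 29 kept other proteases and inhibitors 13 lay below 0 under mock and 16 with IL-10, with medians of 0.00 and -0.05. Ctsz, which encodes cathepsin Z, had 1.45 and 0.77, and Cst3, which encodes the cathepsin inhibitor cystatin C, 0.97 and 0.21, both in the range above 20000 units. Plau, which encodes urokinase, had 0.49 and 0.68 and Adam19 -0.81 and -0.78. With IL-10 Adam9 stood higher by 0.84 in the knockout and 0.51 in wild type on the log2 scale. Over 38 kept genes of TGF-beta and fibrosis signalling, a list that shares Pdgfra, Ctgf and other genes with those above, the medians were -0.10 and -0.08, with Tgfb1 at -0.14 and 0.01, Yap1, a growth-control coactivator, at -0.53 and -0.48 and Pdgfc at 0.37 and 0.60. The receptor genes Il4ra and Il13ra1 stood higher with IL-10, by 1.87 and 1.72 in the knockout and by 1.16 and 1.61 in wild type on the log2 scale.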

How the data were processed

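RNA of 8 samples in 4 groups was sequenced (TRIzol and a standard Illumina protocol, per the labels' protocols). The submitters' processing notes name RSEM, Bowtie and mm9 with no version or role. Normalization, the way libraries were combined, annotation and gene filters were not given in the sources used here. Values, as deposited, are the authors' normalized expression signal, in 1 column per group. They are named CPM, but all columns total 26705598 units.

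Log2 ratios were computed for the 11400 of 11996 genes with a mean of at least 1 ppm of the column total, with 1 ppm as pseudocount, in Python 3.11.15 with pandas 2.3.3 and statsmodels 0.14.6 (lowess, fraction 0.3, for the length trend), and the calculation was tested on simulated data. With 1 column per group no test was made. Longest GENCODE M21 transcripts gave lengths for 11797 genes, and RefSeq (GRCm38.p6) gave upstream stretches by symbol. The members, gene lists and markers were chosen with earlier results of these data known. Members were named if past 2-fold, among the 12 of highest mean signal, or with the 5 (IL-10: 3) highest or lowest ratios, at 5 ppm or more. In other lists most of the up to 4 genes with the largest knockout and 2 with the largest IL-10 ratios are named. Genes named beyond that, and the upstream stretches of Mmp13 and Timp1, were picked with their values known. The values of 1 member under the filter are not reported here.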

Additional observations from a re-analysis of the deposited data

How the results depend on the processing

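Other pseudocounts, filters, centring, a length correction and leaving out genes above 20000 units were tried, with 1 more setting chosen after seeing the data. The members' median ran from -0.44 to -0.29 under mock and from -0.48 to -0.28 with IL-10 (-0.28 with a pseudocount of 4 ppm), and the IL-10 medians stayed between -0.03 and 0.08. The count past 2-fold under mock was 1 with a pseudocount of 4 ppm, with a filter of 5 ppm, and without the members whose row covers under 50% of the gene (the setting chosen after seeing the data, which takes out Col3a1). With IL-10 it was 3 with a pseudocount of 0.25 ppm, 2 with the median of all kept genes subtracted, and 0 without those partial rows. These counts turn on Col6a5, at -0.81 under mock with 4 ppm and at -1.15 and -1.003 with IL-10 with 0.25 ppm and with centring, and on Col24a1, at -1.04 with IL-10 and 0.25 ppm. The other 921 values for named members kept their side of 2-fold. The cause of these shifts was not tested. The fits with a replicate block and without each replicate were not run. No paired analysis was possible because the columns carry no replicate. Depth is unknown, so counting error cannot be given.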
